A study of Mus musculus with 80 samples.

Results

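Genes of the mitochondrial respiratory chain and of ATP synthase were followed in the lung of C57BL/6 mice from before weaning to old age. They were taken as the spots whose platform annotation gives exactly 1 gene symbol, beginning with Nduf, Uqcr, Sdha to Sdhd, Cox and a digit, or Atp5, or equal to Cyc1. This gave 70 genes on 88 spots, out of 7151 genes on 9663 spots with 1 symbol and 16896 spots in all. Each gene is given by 1 spot, the one with the highest mean over all mice. Complex I (Nduf genes) had 27 genes, complex II (Sdh) 5, complex III (Uqcr and Cyc1) 6, complex IV (Cox) 15 and complex V, the ATP synthase (Atp5), 17. Of these, 60 code for subunits of the complexes, 9 for assembly factors or other proteins that share the prefix, and 1, Ndufs5-ps, is a pseudogene.

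The respiratory chain passes electrons from NADH (complex I) and succinate (complex II) through ubiquinone, complex III and cytochrome c to oxygen at complex IV, and complexes I, III and IV pump protons as they do so. ATP synthase lets the protons flow back through a turning ring of c subunits and makes ATP in its catalytic head. All of the genes followed here are coded in the nucleus. Apart from the pseudogene, their products are imported into mitochondria, and many are joined there with subunits coded by mitochondrial DNA. In the lung, alveolar type II cells, which make surfactant, are known for many mitochondria.

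The series set out to compare mice by age and gender. It holds 40 mice with the lung as the labelled tissue, with 5 females and 5 males in every age group. The youngest group was aged from 17 to 44 days, the young adult group from 169 to 194, the middle-aged group from 476 to 499 and the oldest group from 704 to 743 days; these names for the 4 groups are used below. All had regular feed without restriction, and the labels name no genetic change or drug in any group. Total RNA of each lung was labelled with a radioactive nucleotide during reverse transcription and hybridised to 2 arrays of cDNA spots, A and B, which carry different spots. The deposited values are z scores: the 8448 spots of an array average 0 with an SD of 1, so a level says where a spot stands among the spots measured beside it, and no fold change can be given. In RNA from a whole organ, fewer cells of a type and less RNA per cell cannot be told apart.

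Arrays of one age group resembled each other, with mean correlations per array from 0.876 to 0.964 on array A and from 0.918 to 0.969 on array B. Of 12 listed markers of lung epithelium, 3 were measured: Slc34a2, Sftpd and Lpcat1, with means over all mice of 0.86, -0.06 and -0.41 z. None of 11 listed markers of heart and skeletal muscle, none of 5 of brown fat, and no subunit coded by mitochondrial DNA met the rule of 1 symbol. Spot numbers laid out in 16 blocks of 24 lines and 22 columns showed that spots of the same column moved together: deviations from the group means of spots 22 apart correlated at 0.431 on array A and 0.477 on array B. That layout is read from the data. A second fit therefore used position-corrected values: within every array, the 24 spots sharing a block and column were shifted by the median of their deviations.

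The first comparison was the slope of each gene with age over all 40 mice, with sex as a term. No gene of the 70 passed the adjusted threshold (limma, Benjamini-Hochberg over all 16896 spots, adjusted p under 0.05), where 0.0178% of all spots did. Without the third male of the young adult group 6 genes passed, all of them named below (Atp5b, Atp5g1, Atp5j2, Cox10, Cox16 and Ndufs7), 8.57% of the genes, when 3.73% of all spots passed, and without any 1 of 10 other mice 2 or 4 of these did, with 1.54% to 3.55% of all spots. At an unadjusted p under 0.05, 14 of the 70 had a falling and 3 a rising slope, 24.3% of the genes, against 13.8% of all spots. Slopes were below 0 in 41 of 70 genes, 58.6%, against 42.1% of all spots. The median slope of the genes was -0.00345 z per 100 days and that of all spots 0.00267. The widest 95% interval of any of the 70 slopes reached 0.181 z per 100 days from 0.

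**Figure D1:**
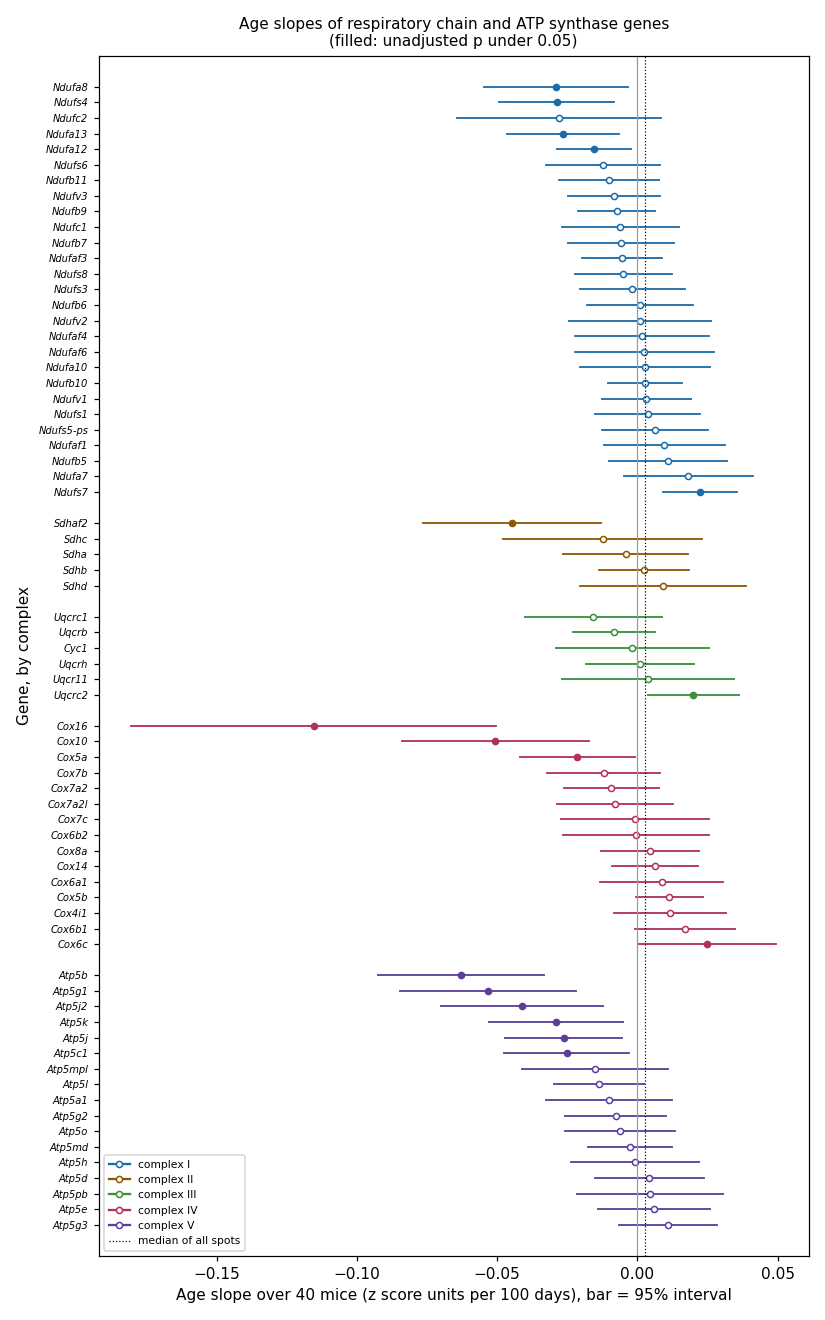
Age slope of each of the 70 genes over 40 mice, in z score units per 100 days (horizontal axis), with its 95% interval, by complex; filled points have an unadjusted p under 0.05 and the dotted line is the median of all spots. Most intervals span 0, and Cox16, Atp5b, Atp5g1 and Cox10 lie farthest to the left.

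Complex I, the entry point for NADH, had 14 of 27 slopes below 0, with 4 falling and 1 rising at the unadjusted threshold. Ndufs7 codes for an iron-sulfur subunit close to the ubiquinone site. Its levels had a median of 0.57 z (0.33 to 0.64) in the youngest, 0.585 (0.43 to 0.76) in the young adult, 0.645 (0.5 to 0.83) in the middle-aged and 0.715 (0.51 to 0.88) in the oldest group. The groups overlapped throughout, while the medians were ordered by age. The slope was 0.0223 z per 100 days (SE 0.00647, limma adjusted p = 0.0644), and 0.00416 with position-corrected values. Ndufs4, an accessory subunit whose loss in mice gives a fatal brain disease, had medians of 0.365, 0.185, 0.245 and 0.105 z in the same order. Its slope was -0.0288 (SE 0.0102, limma adjusted p = 0.139) and -0.0198 with position-corrected values. Ndufa13, an accessory subunit also known as GRIM-19, had a slope of -0.0265 on the values as deposited and 0.0152 with position-corrected values. The core subunits Ndufs1, Ndufs3, Ndufs8, Ndufv1 and Ndufv2 had slopes between -0.00503 and 0.00375, none past the unadjusted threshold. Ndufb10, a subunit of the membrane arm, had a slope of 0.00283 as deposited and 0.0311 with position-corrected values, there with an adjusted p of 0.0681 by limma.

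Complex II, succinate dehydrogenase, had 5 genes, and 1 slope of them passed the unadjusted threshold, that of Sdhaf2, the factor that helps FAD attach to Sdha. Its levels had medians of 1.565, 1.105, 1.25 and 1.095 z in the 4 age groups, and its slope was -0.0447 z per 100 days (SE 0.0158, limma adjusted p = 0.137). With position-corrected values it was -0.00407, not past the unadjusted threshold, and the second spot of the gene had a slope of -0.00282 as deposited. The catalytic subunits Sdha and Sdhb had slopes of -0.00418 and 0.00222. The membrane anchors Sdhc and Sdhd had slopes of -0.0124 and 0.00917.

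In complex III, which hands electrons from ubiquinol to cytochrome c, 3 of 6 slopes were below 0 and 1 passed the unadjusted threshold, upwards. This was Uqcrc2, a core protein of the matrix side, with medians of 0.2, 0.265, 0.325 and 0.34 z and a slope of 0.0198 (SE 0.00804, limma adjusted p = 0.219). With position-corrected values its slope was 0.0059, and none of the 6 genes passed the unadjusted threshold. Uqcrc1, the other core protein, had a slope of -0.0157 (SE 0.0121). Cyc1, the cytochrome c1 haem protein, had a slope of -0.00184.

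Complex IV, cytochrome c oxidase, had 8 of 15 slopes below 0, with 3 falling and 1 rising at the unadjusted threshold. Both of the steepest belong to proteins that build the complex and are not part of it: Cox16, an assembly factor for the copper site, and Cox10, which makes the haem A precursor. Cox16 had medians of 2.675 z (1.66 to 3.53) in the youngest, 1.79 (1.15 to 2.97) in the young adult, 2.12 (1.36 to 3.08) in the middle-aged and 1.55 (0.97 to 2.3) in the oldest group. The oldest mice were the lowest as a group, and all 4 ranges overlapped. The slope was -0.115 z per 100 days (SE 0.0323, limma adjusted p = 0.0555), and -0.0442 (adjusted p = 0.0923) with position-corrected values. For Cox10 it was -0.0506 (SE 0.0165, limma adjusted p = 0.101), and -0.000727 with position-corrected values. Among the subunits, Cox6c had a slope of 0.0248 and Cox5a one of -0.0214. Of the isoform pairs that differ between muscle and other tissues, only the forms known from non-muscle tissue met the rule, and Cox4i1, Cox6a1, Cox7a2 and Cox8a had slopes of 0.0118, 0.00863, -0.00923 and 0.0046, none past the unadjusted threshold.

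Complex V, the ATP synthase, had 13 of 17 slopes below 0, 76.5%, and 6 of them passed the unadjusted threshold, all falling. Atp5b, the catalytic beta subunit of the head, had medians of 1.915 z (1.37 to 2.28) in the youngest, 1.58 (1.29 to 1.97) in the young adult, 1.565 (1.16 to 2.17) in the middle-aged and 1.315 (1.16 to 1.73) in the oldest group. Its slope of -0.0629 z per 100 days (SE 0.0147) had the smallest adjusted p of the 70 genes, 0.0537 by limma, and was -0.0021 with position-corrected values. Atp5g1 is 1 of 3 genes for the c subunit of the ring, which differ in their import sequences and give the same mature protein. Its medians were 1.195, 0.83, 0.855 and 0.655 z and its slope -0.0533 (SE 0.0155, limma adjusted p = 0.0654). With position-corrected values the slope was -0.0307, and the second spot of the gene had a slope of 0.0222 (SE 0.0116) as deposited. Atp5g2 had a slope of -0.00779 (SE 0.009) and Atp5g3 one of 0.0108 (SE 0.00869). The 3 sequences are alike, so their spots may share signal. The other 4 genes past the unadjusted threshold were Atp5j2 and Atp5k (membrane subunits f and e), Atp5j (coupling factor of the outer stalk) and Atp5c1 (the turning gamma subunit), with slopes from -0.0411 to -0.0252. The second spot of Atp5c1 had a slope of 0.00655 (SE 0.0078) as deposited. Atp5a1, the alpha subunit that alternates with Atp5b in the head, had a slope of -0.0101 (SE 0.0112).

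The place of the spots moved with these slopes. Array A column 8 and array B columns 7 to 9 held 9 of the 17 complex V genes, among them all 6 past the unadjusted threshold, and the other 8 genes had a median slope of -0.00185 with none past it. In all, 19 of the 70 genes lay in these columns. Of these, 11 had a falling slope at the unadjusted threshold, 57.9%, and of all 1536 spots there 48.4% passed it in either direction. Of the 51 genes elsewhere, 6 passed it, 11.8%, against 10.3% of the spots elsewhere. The spots elsewhere include other columns that fell. At the unadjusted threshold 105 spots fell in column 12 of array A and 153 in column 10 of array B. In column 8 of array A it was 103 and in column 7 of array B 138. Column 12 of array A held 0 of the 70 genes and column 10 of array B held 1. With position-corrected values, 14 of 17 complex V slopes were below 0, with a median of -0.00807 against 0.000395 for all spots, and 3 passed the unadjusted threshold, 1 rising and 2 falling. Below, the columns named above are array A column 8 and array B columns 7 to 9. They were named after their values had been seen.

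The youngest group spans weaning: 5 of its mice were 17 to 21 days old and the other 5 were aged 33 to 44 days. Between these, 5 of the 70 genes passed the test. All 5 fell, being lower in the older mice: Cox16, Atp5g1, Atp5b, Sdhaf2 and Cox10, that is, 3 genes for assembly or cofactor work and 2 subunits of ATP synthase. Among all spots, 7.48% passed the same test (limma with sex as a term, 10 mice). At an unadjusted p under 0.05, 15 genes were lower and 3 higher at 33 to 44 days, 25.7% of the genes against 19.5% of all spots. The median difference of the genes was -0.0421 z and that of all spots 0.0183.

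Cox16 stood at 2.84, 2.94, 3.16, 3.45 and 3.53 z in the mice of 17 to 21 days and at 1.66, 1.8, 1.81, 2.07 and 2.51 z in those of 33 to 44 days. Every younger mouse was above every older one. The difference was -1.2 z (SE 0.173, limma adjusted p = 0.0102). Atp5g1 stood at 1.28, 1.38, 1.52, 1.56 and 1.58 z at 17 to 21 days and at 0.71, 0.72, 0.8, 1.01 and 1.11 z at 33 to 44 days. Again the groups did not overlap, with a difference of -0.581 z (SE 0.101, limma adjusted p = 0.0142). Atp5b stood at 2, 2.04, 2.11, 2.22 and 2.28 z against 1.37, 1.48, 1.58, 1.79 and 1.83 z. The gap between the groups was again free of overlap, and the difference was -0.518 z (SE 0.105, limma adjusted p = 0.0162). Sdhaf2 stood at 1.6, 1.61, 1.63, 1.79 and 1.84 z against 1.05, 1.12, 1.23, 1.38 and 1.53 z, with a difference of -0.426 z (SE 0.103, limma adjusted p = 0.028). Cox10 stood at 0.81, 1.12, 1.17, 1.26 and 1.3 z against 0.36, 0.45, 0.45, 0.8 and 0.93 z. The male of 17 days, at 0.81 z, lay below the highest of the older mice, and the difference was -0.502 z (SE 0.124, limma adjusted p = 0.030).

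**Figure D2:**
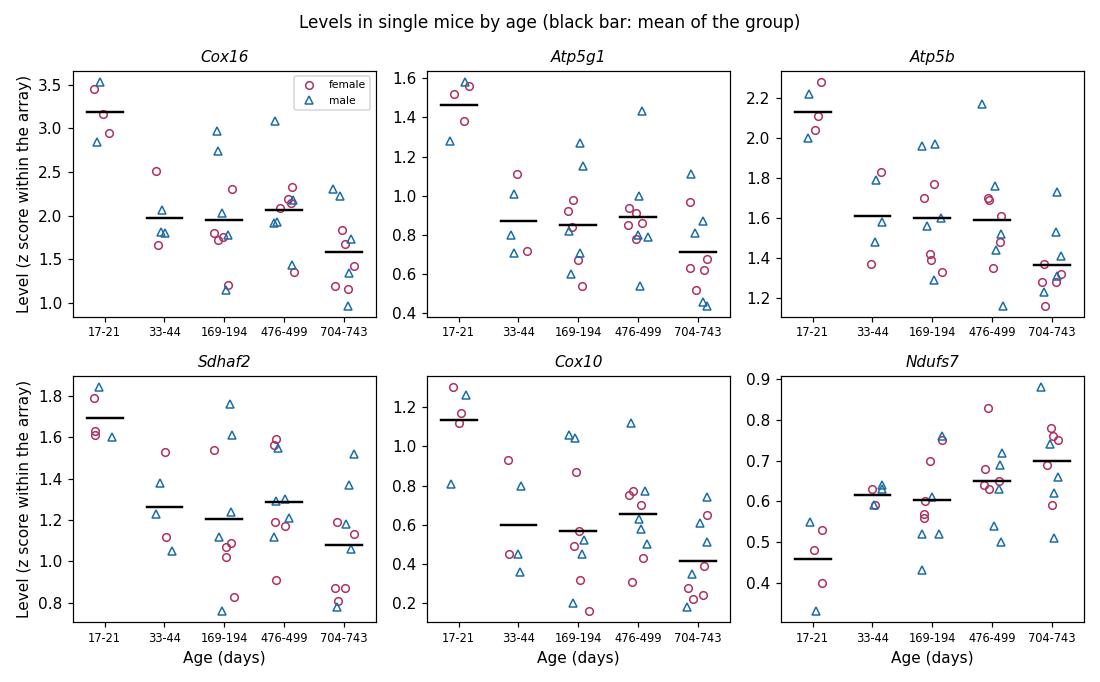
Levels (z score within the array) of the 5 genes that fell between 17 to 21 and 33 to 44 days, and of Ndufs7, in each of 40 mice by age group; circles are females, triangles males, black bars group means. Cox16, Atp5g1, Atp5b and Sdhaf2 do not overlap between the first 2 groups, and later groups overlap with each other.

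The promoters of these 5 genes are shown because these are the genes that passed the test. As 7.14% of the genes passed, against 7.48% of all spots, the count says nothing particular about them. Each is the RefSeq window (build GRCm38.p6) from 250 bases before to 50 after a start site, 300 bases, written 5′ to 3′ on the gene's strand, with capitals marking matches on either strand to the ETS core CCGGAAG or the YY1 core AAGATGGC. For Cox16 it is the first of 2 windows.
Cox16, chr12:81484802-81485101, minus strand: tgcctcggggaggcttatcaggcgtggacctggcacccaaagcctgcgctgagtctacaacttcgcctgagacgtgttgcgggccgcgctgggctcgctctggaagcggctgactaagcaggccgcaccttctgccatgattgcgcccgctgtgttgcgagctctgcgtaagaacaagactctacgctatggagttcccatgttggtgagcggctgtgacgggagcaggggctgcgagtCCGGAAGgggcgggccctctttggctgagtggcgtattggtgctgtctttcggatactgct
Atp5g1, chr11:96075582-96075881, minus strand: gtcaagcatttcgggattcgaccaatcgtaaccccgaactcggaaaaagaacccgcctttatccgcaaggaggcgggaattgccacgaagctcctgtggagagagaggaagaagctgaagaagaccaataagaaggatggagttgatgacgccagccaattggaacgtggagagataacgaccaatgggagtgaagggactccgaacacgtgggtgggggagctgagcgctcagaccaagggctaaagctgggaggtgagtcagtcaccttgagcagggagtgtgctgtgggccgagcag
Atp5b, chr10:128083057-128083356, plus strand: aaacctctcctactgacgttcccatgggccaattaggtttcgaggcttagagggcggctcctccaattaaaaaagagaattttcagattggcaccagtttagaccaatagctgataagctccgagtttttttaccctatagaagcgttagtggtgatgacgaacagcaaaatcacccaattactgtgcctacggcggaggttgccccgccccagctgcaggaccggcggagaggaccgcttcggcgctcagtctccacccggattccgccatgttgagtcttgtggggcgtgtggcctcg
Sdhaf2, chr19:10525160-10525459, minus strand: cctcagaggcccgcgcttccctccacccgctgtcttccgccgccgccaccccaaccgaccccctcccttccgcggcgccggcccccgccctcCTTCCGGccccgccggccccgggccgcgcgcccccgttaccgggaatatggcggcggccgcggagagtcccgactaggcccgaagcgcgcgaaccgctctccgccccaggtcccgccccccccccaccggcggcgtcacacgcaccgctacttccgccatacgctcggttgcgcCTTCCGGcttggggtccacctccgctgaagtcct
Cox10, chr11:64079423-64079722, minus strand: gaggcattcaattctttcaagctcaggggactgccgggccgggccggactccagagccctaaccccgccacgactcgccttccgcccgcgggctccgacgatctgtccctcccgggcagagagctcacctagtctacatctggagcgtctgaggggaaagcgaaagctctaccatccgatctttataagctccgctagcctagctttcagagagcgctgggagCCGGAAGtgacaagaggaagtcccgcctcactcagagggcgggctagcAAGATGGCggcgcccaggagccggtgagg
Cox16 held 1 ETS core, Sdhaf2 held 2, and Cox10 held 1 ETS and 1 YY1 core. Neither core, nor the NRF1 core GCGCANGCG or the ERR core TCAAGGTCA, was found in the windows of Atp5b and Atp5g1. These 4 motifs belong to factors known for nuclear genes of the respiratory chain, and no pair of them was seen to share letters in these windows. Over all 70 genes, 58 had a RefSeq window. The ETS core was found in 22 of them (37.9%, against 9.93% of 27025 genes in the table and 12.9% of 17492 protein-coding ones). The NRF1 core was found in 16 (27.6%, against 7.03% and 9.63%), the YY1 core in 8 (13.8%, against 3.19% and 3.57%) and the ERR core in 2 (3.45%, against 0.47% and 0.377%). At least 1 of the 4 motifs was found in 37 of the 58 genes, among them 12 of 15 for complex V and 6 of 13 for complex IV.

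By complex, the genes past the unadjusted threshold between 17 to 21 and 33 to 44 days were 9 of 17 in complex V, 8 of them lower, 5 of 27 in complex I, 2 of 15 in complex IV and 1 each of 5 and 6 in complexes II and III. Of the 9 complex V genes in array A column 8 or array B columns 7 to 9, 7 were lower. Of all spots there, 57.4% passed in either direction. The other 8 complex V genes had a median difference of 0.0025 z, with 1 lower and 1 higher. With position-corrected values 2 complex V genes were lower and 1 higher, 17.6%, against 16.3% of all spots. Without overlap between the groups, 10 genes were lower at 33 to 44 days, against 5.85% of all spots, and 1 was higher, against 2.83%. The 10 were Cox16, Atp5g1, Atp5b, Sdhaf2, Atp5j, Atp5j2, Uqcrb, Ndufs4, Ndufa13 and Ndufa8. All of them except Ndufs4 and Ndufa8 lay in the columns named above, where spots fell in general. The differences of Atp5b, Atp5j2 and Ndufa13 changed sign with position-corrected values. In complex I, Ndufs4 stood at 0.4, 0.48, 0.55, 0.58 and 0.62 z at 17 to 21 days and at 0.1, 0.23, 0.23, 0.31 and 0.33 z at 33 to 44 days. Its difference of -0.286 z (SE 0.0927, limma adjusted p = 0.0781) was -0.264 with position-corrected values, so it lay close to the value as deposited. Ndufa8, another accessory subunit, stayed likewise at -0.325 with position-corrected values, from -0.357 as deposited (adjusted p = 0.14 by limma). The gene higher without overlap was Ndufs7, at 0.33, 0.4, 0.48, 0.53 and 0.55 z against 0.59, 0.59, 0.63, 0.63 and 0.64 z, a difference of 0.16 z (SE 0.0715, limma adjusted p = 0.239). Its spot lay in column 3 of array B, where spots rose in general. Of the 384 spots there, 80 rose and 6 fell at the unadjusted threshold, with a median difference of 0.079 z. Atp5e, the small epsilon subunit of the head, had a difference of 0.212 z as deposited and -0.035 with position-corrected values.

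All 5 genes past the adjusted threshold lay in the columns named above: Cox16 in column 8 of array A, Atp5g1 and Sdhaf2 in column 8 of array B, and Atp5b and Cox10 in column 9 of array B. In column 9 of array B, 251 of all spots fell by the same test, and the median difference of the column was -0.401 z. In column 8 it was 131 spots on array B and 81 on array A. Outside the columns named above, 98 spots fell in column 10 of array B, 68 in column 12 of array A and 63 in column 12 of array B. The other spots of the same block and column had a median of -0.586 z around Atp5b, -0.468 around Cox10, -0.386 around Sdhaf2, -0.212 around Atp5g1 and -0.783 around Cox16. Within those blocks, 17 of 22 neighbours were lower than Atp5b, 8 of 23 lower than Cox10, 7 of 23 lower than Sdhaf2, 2 of 23 lower than Atp5g1 and 1 of 23 lower than Cox16. With position-corrected values none of the 70 genes passed the adjusted threshold by limma, and no spot of all 16896 did. At an unadjusted p under 0.05, 9 genes passed, 12.9%, against 16.3% of all spots. Cox16 then had a difference of -0.389 z (SE 0.0836, limma adjusted p = 0.0618) and Atp5g1 one of -0.345 z (SE 0.0822, limma adjusted p = 0.0765). Sdhaf2 and Cox10 had -0.055 and -0.0538 z, and Atp5b turned to 0.0796 z. Of the 70 genes, 19 lay in array A column 8 or array B columns 7 to 9, all with a difference below or at 0 and with a median of -0.232 z, and the 51 elsewhere had a median of -0.00833 z with 3 lower and 3 higher at the unadjusted threshold.

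**Figure D3:**
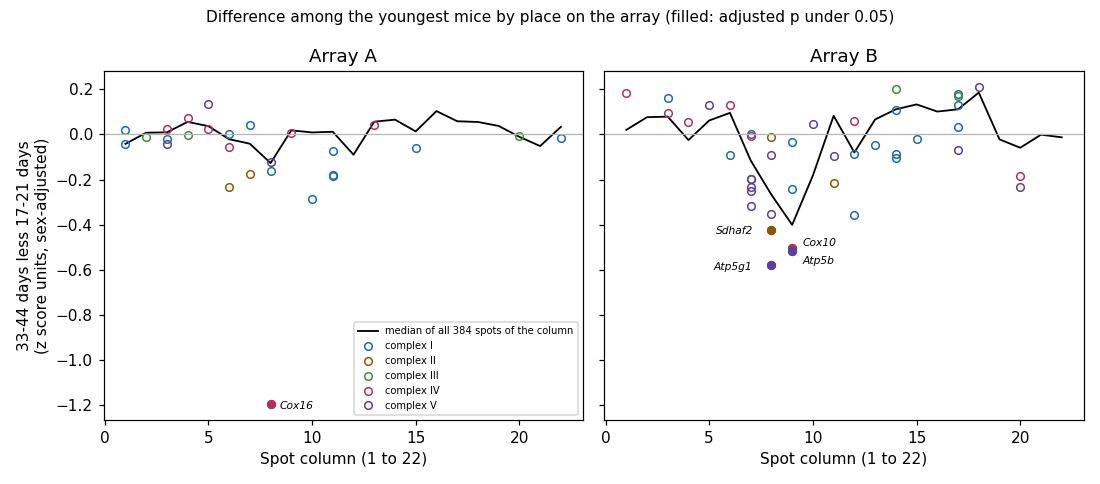
Difference between mice of 33 to 44 and 17 to 21 days (z score units, sex-adjusted) of each gene against the column of its spot, for arrays A and B, coloured by complex; the black line is the median of all spots of a column. The 5 filled points, past the adjusted threshold, lie in columns 8 and 9, where the line reaches -0.401 on array B.

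**Figure D4:**
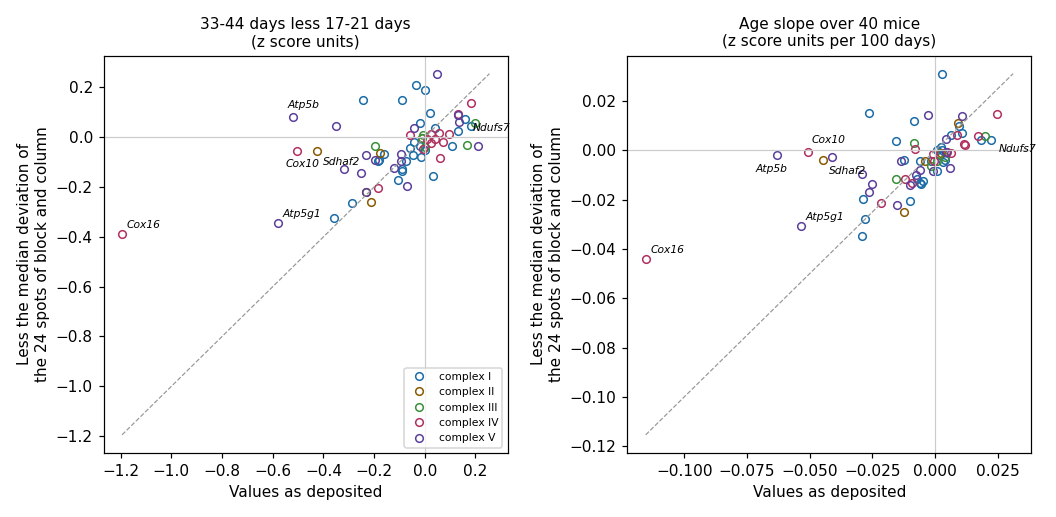
Difference among the youngest mice (left) and age slope (right) of the 70 genes as deposited (horizontal axis) and position-corrected (vertical axis), coloured by complex; the dashed line marks equal values. Atp5b, Cox10 and Sdhaf2 move close to 0, and Cox16 and Atp5g1 stay below 0 at -0.389 and -0.345 z in the left panel.

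Genes with more than 1 spot gave a check within the data. There were 16 such genes with 18 further spots, and in the comparison of the youngest mice all spots of a gene had the same sign in 4 genes and signs differed in 12. Over all 40 mice, the spots of a gene had the same sign of slope as deposited in 14 of 16, the exceptions being Atp5g1 and Atp5c1. Some of these spots share a column: those of Atp5md, those of Uqcrc2 and the Atp5b spots of array B. With position-corrected values the signs of slope differed in Atp5b, Atp5g1, Cox7a2l, Ndufb5, Uqcrb, Uqcrc1 and Uqcrc2, and were the same in the other genes. In the youngest mice, the Atp5g1 spot in column 8 of array B gave -0.581 z. The spot in column 12 of the same array gave 0.293 z (SE 0.124, limma adjusted p = 0.206). For Atp5b, the second spot in column 9 of array B gave -0.639 z (SE 0.111, limma adjusted p = 0.0142) and the spot in column 2 of array A gave -0.0633 z (SE 0.115, limma adjusted p = 0.857). For Sdhaf2, the spot in column 4 of array A gave 0.18 z (SE 0.106). So the drop of Atp5b was measured by its 2 spots in column 9 and that of Atp5g1 and Sdhaf2 by 1 of 2 spots each. Cox16 and Cox10 had no further spot. Further spots also passed the adjusted threshold for Ndufa10, a complex I accessory subunit, at 0.407 z against -0.0725 z for its chosen spot, and for Atp5md, a small ATP synthase subunit, at -0.357 z against 0.0475 z.

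**Figure D5:**
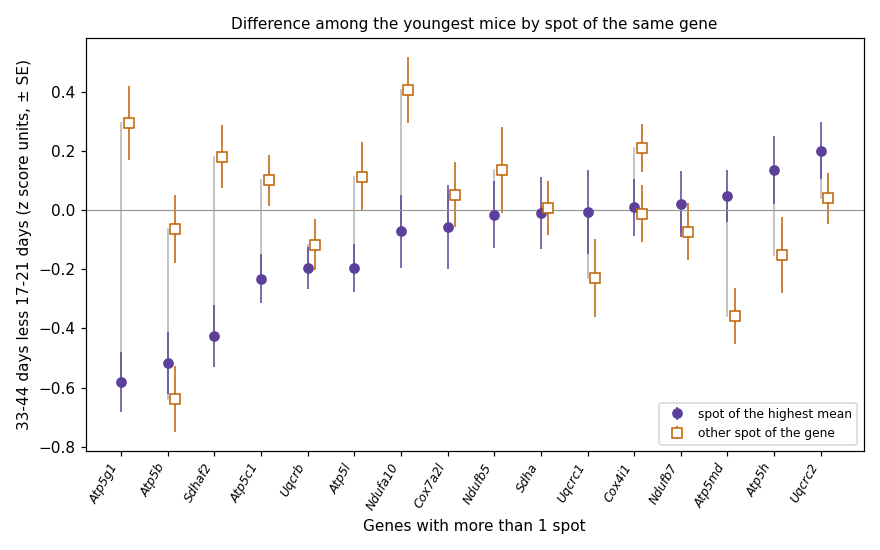
Difference between mice of 33 to 44 and 17 to 21 days (z score units, ± SE, sex-adjusted) for every spot of the 16 genes with more than 1 spot; filled circles are the spots of highest mean, open squares the other spots. For Atp5g1, Sdhaf2 and Atp5c1 the spots lie on opposite sides of 0.

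Other measures also moved with the difference among the youngest mice. All 6 measured red cell markers of 8 listed (Hba-a1, Hba-a2, Hbb-y, Hba-x, Alas2 and Fech) fell by the same test, where 7.48% of all spots passed in either direction. Their summed level as deposited ran from 9.59 to 11.81 z at 17 to 21 days and from 5.61 to 8.38 z at 33 to 44 days. With position-corrected values none of all 16896 spots passed, and so none of these markers did. Alas2, the first enzyme of haem synthesis in red cells, had a difference of -0.527 z as deposited and -0.54 z with position-corrected values. The part of red cells in the values of the 70 genes was not tested. Among the youngest mice, the number in the title also differed: 2 of the 5 mice of 33 to 44 days had numbers above 46 and none of the younger 5 did. With the title number as a covariate, 6 of the 70 genes passed the adjusted threshold (limma), 8.57%, against 8.58% of all spots. With earlier and later numbers as a block none of the 70 genes passed, against 0% of all spots. Cox16 then had a difference of -1.02 z and Atp5g1 one of -0.499 z, each with a limma adjusted p of 0.0782. Without the male of 19 days, or without the female of 33 days, none of the 70 genes passed either. At an unadjusted p under 0.05, 11 and 13 genes passed there, against 13.6% and 14.9% of all spots.

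Among the 30 mice of 169 days or older, no gene of the 70 had a slope past the adjusted threshold by limma, where 0% of all spots did. At an unadjusted p under 0.05 it was 2 of 70, 2.86%, against 2.59% of all spots. The genes were Atp5b, with a slope of -0.0433 z per 100 days (SE 0.0184) and -0.0047 with position-corrected values, and Ndufb11, an accessory subunit of the membrane arm of complex I, with a slope of -0.0272 (SE 0.0123) and -0.029 with position-corrected values. Ndufb11 had medians of 0.455 z (0.33 to 0.53) in the young adult, 0.44 (0.1 to 0.54) in the middle-aged and 0.33 (-0.12 to 0.55) in the oldest group, so the ranges widened downwards with age and their upper ends stayed level. In complex V, 14 of 17 slopes were below 0, with a median of -0.0109 against 0.00125 for all spots. With position-corrected values it was 12 of 17 with a median of -0.00553 and none past the unadjusted threshold, and as deposited the 8 genes outside the columns named above had a median of -0.00422. Without the third young adult male, 5 of the 70 genes passed the unadjusted threshold, against 5.31% of all spots. Without the fourth none did, against 1.76%.

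From the young adult to the oldest group, none of the 70 genes passed the adjusted threshold by limma, where 0.00592% of all spots did. At an unadjusted p under 0.05 it was 2 of 70, 2.86%, against 2.5% of all spots, again Atp5b (-0.237 z, SE 0.113) and Ndufb11 (-0.151 z, SE 0.0665). Without the third young adult male it was 5 genes, and without the first female or the fifth male of the oldest group none. This comparison shares its mice with the slope over adult mice. From the youngest to the young adult group, none of the 70 passed the adjusted threshold by limma either, where 0% of all spots did. At an unadjusted p under 0.05, 9 genes were lower, 12.9%, against 5.94% of all spots in either direction. They were Cox16 (-0.631 z, SE 0.239), Atp5g1, Cox10, Atp5j2, Sdhaf2, Atp5b, Atp5k, Ndufs4 and Ndufa12, and 8 of the 9 lay in the columns named above, Ndufs4 being the exception. With position-corrected values 5 genes passed, 7.14%, against 5.04% of all spots. As deposited, without the third young adult male it was 3 genes, against 2.51% of all spots. Without the male of 19 days it was 4, against 2.19%, and without the female of 17 days 6, against 3.33%. With the mice of 33 to 44 days alone as the youngest group, 0 of the 70 genes passed, against 0.87% of all spots.

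The mean level of the 17 complex V genes in a mouse was 0.6 ± 0.104 z (SD, n = 10) in the youngest, 0.519 ± 0.093 in the young adult, 0.532 ± 0.088 in the middle-aged and 0.465 ± 0.068 in the oldest group. For the 27 complex I genes it was 0.084 ± 0.066, 0.061 ± 0.031, 0.063 ± 0.066 and 0.05 ± 0.061 z. With position-corrected values the complex V means were 0.563, 0.521, 0.531 and 0.502 z.

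Between the sexes, averaged over the age groups, none of the 70 genes passed the adjusted threshold by limma (0% of all spots) and 1 passed at an unadjusted p under 0.05, 1.43%, against 1.45% of all spots. This was Cox7c, a small subunit of complex IV, with a median of -0.145 z (-0.52 to 0.14) in 20 males and -0.055 z (-0.32 to 0.77) in 20 females. The highest female, at 0.77 z, lay far from the others of her age group, and she was among the 18 of 40 mice without any 1 of which no gene passed the unadjusted threshold. The ranges overlapped widely, and the difference was -0.145 z (SE 0.0705, limma adjusted p = 0.9998). The largest 95% bound of any of the 70 sex differences lay 0.438 z from 0. Whether slopes differed between the sexes was tested as an interaction: none of the 70 genes passed the adjusted threshold by limma (0% of all spots), and 1, Ndufv1, the NADH-binding subunit of complex I, passed at an unadjusted p under 0.05, against 2.01% of all spots. Its slope was lower in males by an interaction of -0.0379 z per 100 days (SE 0.0149).

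Genes around the respiratory chain, from lists outside the rule, gave few calls. Over all 40 mice none of 34 measured genes for cytochrome c, coenzyme Q synthesis, further assembly factors, carriers, regulators and glycolysis passed the adjusted threshold by limma. The only measured gene for cytochrome c, Cycs, the electron carrier between complexes III and IV, had a slope of -0.0109 z per 100 days (SE 0.0107). Among 8 measured regulators, Tfb1m, a methyltransferase of mitochondrial ribosomal RNA, had a slope of -0.0475 (SE 0.0154, limma adjusted p = 0.0972). In the youngest mice, 3 of the 34, 8.82%, fell by the same test, against 7.48% of all spots: Tfb1m (-0.552 z), Vdac1, the main pore of the outer membrane (-0.443 z), and Hk1, a hexokinase that binds to that pore (-0.574 z). With position-corrected values their differences were -0.198, -0.0898 and -0.0558 z. Of the remaining carriers, Vdac2 and Vdac3 had differences of 0.121 and 0.02 z, and Nrf1, Gabpb1 and Yy1, whose products bind the motifs searched above or pair with a protein that does, had 0.103, 0.247 and -0.138 z, none past the adjusted threshold.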

How the data were processed

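Lung RNA of 40 mice was measured on 2 spotted cDNA arrays each. The values deposited by the authors are z scores (a score with mean 0 and SD 1 on each array, without missing values). How intensities became z scores (log scale, background, spot filters) is not stated in the sources used here. Age and sex came from the labels. The description of a male of 714 days names another mouse. Spots were named from the platform annotation, and promoters came from RefSeq.

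Each array type was fitted with limma 3.58.1 in R 4.3.3 (lmFit, eBayes, two-sided), with Benjamini-Hochberg adjustment over 16896 spots and a threshold of 0.05. Fits of the slope over all mice, the oldest less the young adult group and the difference among the youngest mice were tested on simulated data. The other comparisons were not. In the simulated data each spot varied on its own, without the shared movement of spots of a column. Named genes were those past the threshold, up to 3 of smallest p per direction and comparison, 2 per complex in the slope over all mice, and isoform families, and others where the text counts 10 or fewer. Members and lists were chosen with earlier results of these data known. Alternatives were quantile normalization, a filter on dim spots, trend and robust settings, title number, spot position, age on a log2 scale, other choices of mice or spots, and each mouse left out. Counts by array column and a block of title-number rounds were added after seeing the data. Figures used matplotlib 3.10.9 in Python 3.11.15.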

Additional observations from a re-analysis of the deposited data

Results flagged for a closer look

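In 124 sets of 10 mice (31 named genes by 4 age groups), 8 had a highest or lowest mouse far from the others by Dixon's test at the 95% level. At that level about 1 in 20 sets would be flagged by chance if they were independent. The sets here share the same 40 mice over 31 genes, so 8 of 124 cannot be judged against that rate. The same female of 704 days gave 4 of the 8, in the group of 704 to 743 days. She had the highest level of Atp5e, 0.45 z with the next mouse at -0.04 z, and of Ndufs3, 0.1 z with the next at -0.33 z. Her level was the lowest for Atp5g3, 0.39 z with the next at 0.79 z, and for Ndufaf6, -0.13 z with the next at 0.24 z. The mean correlation of her arrays with the other arrays of that age group was 0.888 on array A and 0.918 on array B, the latter the lowest of all 40. The other 4 came from 4 mice. A male of 476 days had Atp5g1 at 1.43 z, with the next mouse at 1 z. A female of 169 days had Cox7c at 0.77 z, with the next at 0 z. A male of 43 days had Ndufa8 at -0.34 z, with the next at 0.19 z, and this gene was among those whose youngest groups did not overlap. A female of 499 days had Cox7a2 at -0.54 z, with the next at -0.27 z.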

How the results depend on the processing

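The counts of genes past the adjusted threshold (limma) moved in 2 of the 7 comparisons. For the slope over all mice, where none passed, 4 passed with the dimmest 33.3% of spots left out (4.06% of all spots left), 1 (Atp5b) with trend and robust settings (0.698%), and 13 with log2 of age (7.03%), 10 of them in array A column 8 or array B columns 7 to 9. For the youngest mice, where 5 passed, 8 passed without the dimmest spots (14% of the genes left, 15% of the spots) and 3 with the mean of all spots of a gene. It was 6 with the title number as a covariate (8.57% of the genes, 8.58% of all spots). It was 0 with the title number as a block, with title numbers up to 46 alone, or with position-corrected values. Leaving out 1 mouse gave 0 to 6 for the slope and 0 to 8 for the youngest. By sex and replicate, the slope count was 6 without young adult male 3. It was 4 without youngest males 1 and 5 or female 5, young adult female 2, middle-aged male 2 or oldest male 1, each left out alone. It was 2 without young adult male 1, females 3 or 5, or oldest male 4. The youngest count was 0 without the male of 19 or the female of 33 days (0% of all spots), 8 without the female of 40 days (11.4% of the genes, 11.5% of all spots), and 3 without the female of 17 or of 21 days (2.42% and 2.68%). In the other 5 comparisons it stayed at 0 under all settings run, with 0 to 11 genes at an unadjusted p under 0.05 when a mouse was left out.

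Ordered by title number, the mice form 5 rounds, each with 1 mouse of every sex and age group. The labels do not say what a round shares. Deviations from the group means correlated at 0.092 on array A and 0.231 on array B within a round, and at -0.021 and -0.053 between rounds, and 71 and 95 of 140 pairs were over 0.1. With the rounds as a replicate block, chosen after seeing the data, 4 genes passed for the slope (Atp5b, Atp5g1, Cox16 and Ndufs7), against 2.39% of all spots. For the youngest mice 0 passed, against 0.00592% of all spots. At an unadjusted p under 0.05 it was 7 genes there, 10%, against 13.6% of all spots. The other counts stayed at 0.

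Position correction turned the sign of 18 of 70 slopes over all mice, 2 of them past the unadjusted threshold as deposited (Ndufa12 and Ndufa13), and of 19 differences in the youngest mice. Atp5b moved there to 0.0796 z and Atp5e to -0.035 z. The slope of Sdhc went to 0.00511 with the title number as a covariate, 0.00601 as a block and 0.00839 with numbers up to 46 alone. That of Cox6a1 went to -0.00225 with the block and -0.00636 with numbers up to 46 alone, and that of Cox8a to -0.000552 with position correction. Uqcrc2 went to -0.022 z from the youngest to the young adult group with the mice of 33 to 44 days alone as the youngest group. The causes were not tested. The deposited z scores hold no background measure, so signal over background could not be given.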
